A study of Mus musculus with 4 samples.

Results

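Monocytes 1 is 1 of 16 clusters that the authors named in single cell RNA sequencing of CD45+ leukocytes from 20967 melanomas, and its 329 members are the cells that carry this name in the deposited cell table, out of 4108 cells in all. The melanoma line was derived from the Nras+LSL-G12D;Tyr::CreERT2+/o background on C57BL/6 and is a single line, and its tumors grew in wild type C57BL/6 mice. Of 10 tumors, 5 came from mice given a control preparation and 5 from mice given clobetasol propionate, a strong synthetic glucocorticoid (GC). Each tumor carried its own hashtag, so that a cell can be traced to its tumor. The 5 tumors of a group were pooled before loading, with 17100 control and 3500 GC cells loaded into separate channels. Channel and treatment therefore cannot be told apart. The labels give neither the age of the mice nor the length of the treatment. The cluster was compared with the clusters closest to it, which are Monocytes 2 (118 cells), TAM (tumor-associated macrophages, 766 cells) and DC 2 (a dendritic cell cluster, 104 cells).

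Classical monocytes leave the bone marrow for blood and inflamed tissue through the chemokine receptor Ccr2 and carry the surface protein Ly6C, encoded in part by Ly6c2. In tissues and tumors they can mature into macrophages and into antigen-presenting cells, while a separate Ly6C-low population, the non-classical monocytes, patrols blood vessels and depends on the transcription factor Nr4a1. Type I interferon, sensed by nearly every cell, switches on interferon-stimulated genes through factors that include Stat2 and Irf9 and bind a DNA element called the ISRE. GCs act through the receptor Nr3c1, which binds DNA directly and also restrains inflammatory transcription factors.

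Most Monocytes 1 cells came from control tumors, which also gave most cells of the series (3803, against 305 from GC tumors). The cluster made up 8.18% of all control cells and 5.90% of all GC cells. Control replicates 1 to 5 held 69, 64, 130, 44 and 4 of them. GC replicates 1 to 5 held 0, 7, 9, 0 and 2, or 18 in all. The control cells had a median of 12410 unique molecular identifiers (UMIs, 1 for each RNA molecule captured) and 3126 genes, close to the 12800 UMIs of Monocytes 2 and the 12883 of TAM in controls. The GC cells were deeper, with a median of 16215 UMIs. The median mitochondrial share was 1.89% in control and 1.57% in GC cells. No barcode was shared by the channels. Of the T, B and NK cell, eosinophil and melanoma genes listed, 0 reached 0.2 UMIs per 10000 in this or the compared clusters of control tumors, although 86 of the 329 cells held at least 1 UMI of the 8 T cell genes listed.

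As a share of CD45+ cells, Monocytes 1 made up 8.67%, 7.63%, 10.4%, 7.71% and 1.153% of control replicates 1 to 5. Control replicate 5 stood apart at the low end, and its exact (Clopper-Pearson) 95% interval of 0.315% to 2.93% did not reach those of the others. The GC tumors gave 9.33% in replicate 2, 8.11% in replicate 3 and 2.53% in replicate 5. GC replicates 1 and 4 held 0 of 18 and 0 of 22 cells, which allows shares of up to 16.7% and 13.6% by a limit of 3 cells, or 18.5% and 15.4% by the exact intervals. The ranges of the groups overlapped. The mean was 7.11% ± 3.51 (SD, n = 5) in controls and 3.99% ± 4.46 (SD, n = 5) after GC.

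Monocytes and TAMs together were the cells of Monocytes 1, Monocytes 2, Monocytes 3 and TAM. Among them, in tumors with at least 5 such cells, Monocytes 1 made up 23.0% ± 12.3 (SD, n = 5) in controls and 28.3% ± 6.20 (SD, n = 3) after GC. The log2 ratio of Monocytes 1 to TAM cells was -1.73 ± 1.39 in the same control tumors and -1.20 ± 0.39 in the GC tumors. All 3 GC values lay within the control range for both measures. No test is given for these shares, since 7 of the 15 genes that mark the cluster lay outside the control tumors after GC (by the limit defined with the GC comparison), so that a cell's cluster and its treatment are not independent. Intervals cover counting error only.

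**Figure D1:**
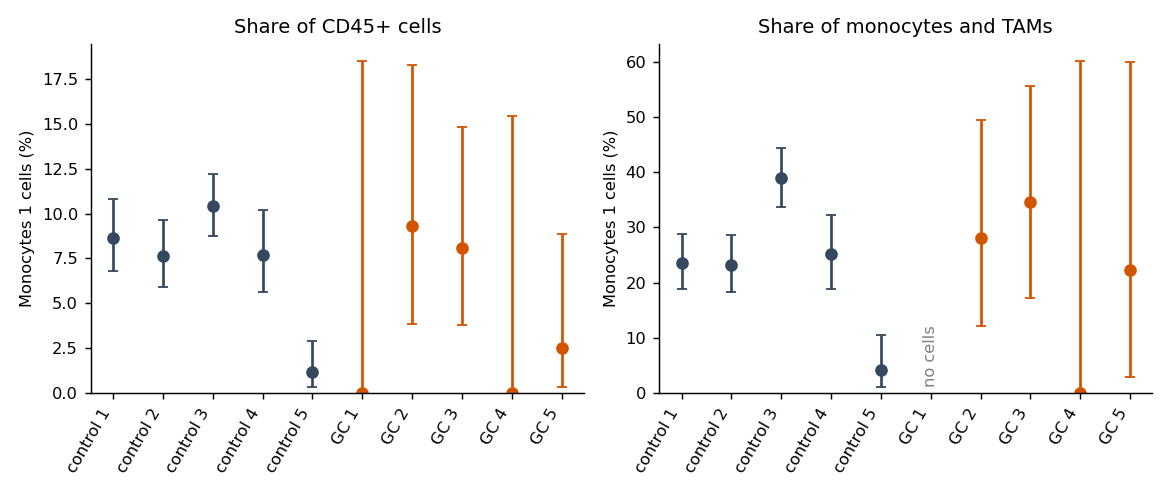
Monocytes 1 cells in each tumor, as a percentage of CD45+ cells (left) and of monocytes and TAMs (right), with exact 95% binomial intervals; control tumors in dark blue, GC tumors in orange. Control 5 lies lowest of the controls at 1.153%, and the GC intervals span most of the control range.

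Levels in control tumors are given as mean UMIs per 10000 UMIs of a cell, averaged within each tumor, over the 4 control tumors that held at least 10 cells of every cluster compared (replicates 1 to 4, 307 Monocytes 1 cells). Since the clusters were drawn from these same genes, their differences describe the clusters and were not tested.

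The genes behind the name marked monocytes, but not this cluster alone. Ly6c2 (chr15:75108158-75111970, GRCm38) stood at 12.5, 9.92, 8.31 and 11.0 UMIs per 10000 in Monocytes 1 of control replicates 1 to 4. Its mean of 10.4 ± 1.77 (SD, n = 4) was above TAM (2.17) and DC 2 (1.04), whereas the highest Monocytes 2 tumor reached 10.5. Plac8, a small cysteine-rich protein abundant in Ly6C-high monocytes, was at 24.1 ± 4.43 in Monocytes 1 and 24.99 in Monocytes 2, against 5.00 in TAM and 8.10 in DC 2. Ccr2 did not separate the cluster from either, at 10.7 ± 1.48 in Monocytes 1, 11.8 in Monocytes 2 and 11.2 in TAM, with 4.02 in DC 2. Ly6c2 and Plac8 thus set both monocyte clusters apart from TAM and DC 2, and 0 of the 3 markers set Monocytes 1 apart from Monocytes 2. Of 13 classical monocyte genes listed, all were measured and 5 were highest in Monocytes 1, against 16.9% of the 6952 genes measured. Among them, the membrane protein gene Ms4a4c (8.02 against 4.31 in Monocytes 2) and the coagulation factor genes F13a1 (11.6 against 8.05) and F10 (4.49 against 2.84) were higher in Monocytes 1. Chil3 (4.20 against 7.79) and Hp (1.36 against 2.56) were lower.

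Interferon-stimulated genes set Monocytes 1 apart from the 3 clusters compared. In all, 67 of 6952 genes (0.964%) were at least 2-fold higher in it than in each of the other 3 clusters, on a log2 scale with 0.1 added. By list, 14 of 26 interferon-stimulated genes and 6 of 12 genes of the HIN-200 family passed this limit, and all 26 of the first list were highest in Monocytes 1 among the 4 clusters. The median log2 difference from the highest other cluster was 1.02 for the interferon-stimulated genes and 1.06 for the HIN-200 family, beside -0.40 for all genes measured. In 18 of the 26 genes and in 9 of the 12, the lowest Monocytes 1 tumor still lay above the highest tumor of every other cluster. The share of all 6952 genes that did so was not counted, so these 2 counts have no background beside them.

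Among the effectors, Rsad2 (chr12:26442746-26456452), which encodes the antiviral enzyme viperin, was at 8.98, 5.86, 9.81 and 6.46 UMIs per 10000 in Monocytes 1 of control replicates 1 to 4. Its means were 7.78 ± 1.91 in Monocytes 1, 2.17 in Monocytes 2, 1.69 in DC 2 and 0.93 in TAM. The highest Monocytes 2 tumor, at 5.47, came close to the lowest Monocytes 1 tumor. Cxcl10 (chr5:92346638-92348889), a chemokine that draws Cxcr3-bearing T cells, was at 11.7, 6.07, 11.5 and 6.62, and averaged 8.97 against at most 2.49 elsewhere. The RNA-binding proteins of the Ifit family were low in number and steep in contrast, with Ifit1 at 2.64 against at most 0.56, Ifit2 at 5.29 against at most 1.46 and Ifit3 at 1.27 against at most 0.33. Isg15, a ubiquitin-like modifier, stood at 5.67 ± 1.28 and its protease Usp18 at 1.66 ± 0.57. Slfn4, a Schlafen gene of myeloid cells, was at 4.61 against at most 0.70. Ddx60, an RNA helicase of antiviral defense, was at 2.47 ± 0.82 against at most 0.64. These contrasts hold for the 3 clusters compared, since pooled control neutrophils held Slfn4 at 9.73, Rsad2 at 5.92 and Isg15 at 5.89 UMIs per 10000. Beside these, the leading genes held Ifit1bl1 (1.126 against at most 0.21), Timp1, an inhibitor of matrix proteases (1.75 against at most 0.46), and Gadd45a, a stress response gene (1.34 against at most 0.37).

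Of the upstream factors, Irf7, which amplifies interferon production, was at 2.96 against at most 1.21, and Stat2 at 3.09 against at most 1.45. The tumors of the effector gene Gbp2 (5.41 against 3.02 in TAM) overlapped between the clusters. Ifitm3, a membrane protein that blocks viral entry, was abundant in all 4, between 9.88 and 17.2.

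The HIN-200 genes encode nuclear and cytosolic DNA-binding proteins and lie side by side on chromosome 1 (chr1:173350879-174031810 in GRCm38, for the 12 listed). Ifi204 was at 10.3, 8.84, 11.1 and 8.54 UMIs per 10000 in control replicates 1 to 4, with a mean of 9.68 ± 1.19 against 5.37 in Monocytes 2, 2.43 in TAM and 2.25 in DC 2. Every Monocytes 1 tumor lay above every tumor of the others. Ifi206 was at 2.84 ± 0.68 against at most 0.68, Ifi213 at 3.76 ± 1.03 against at most 1.09 and Ifi211 at 5.60 ± 0.60 against at most 2.01. Ifi207 (5.70 against 6.64 in Monocytes 2) and Aim2, the DNA sensor of the inflammasome (1.30 against 1.36 in DC 2), were not highest in Monocytes 1. These genes are near copies of each other, as are Ifit1 with Ifit1bl1 and Ifit3 with Ifit3b, so how reads were divided among them is uncertain.

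**Figure D2:**
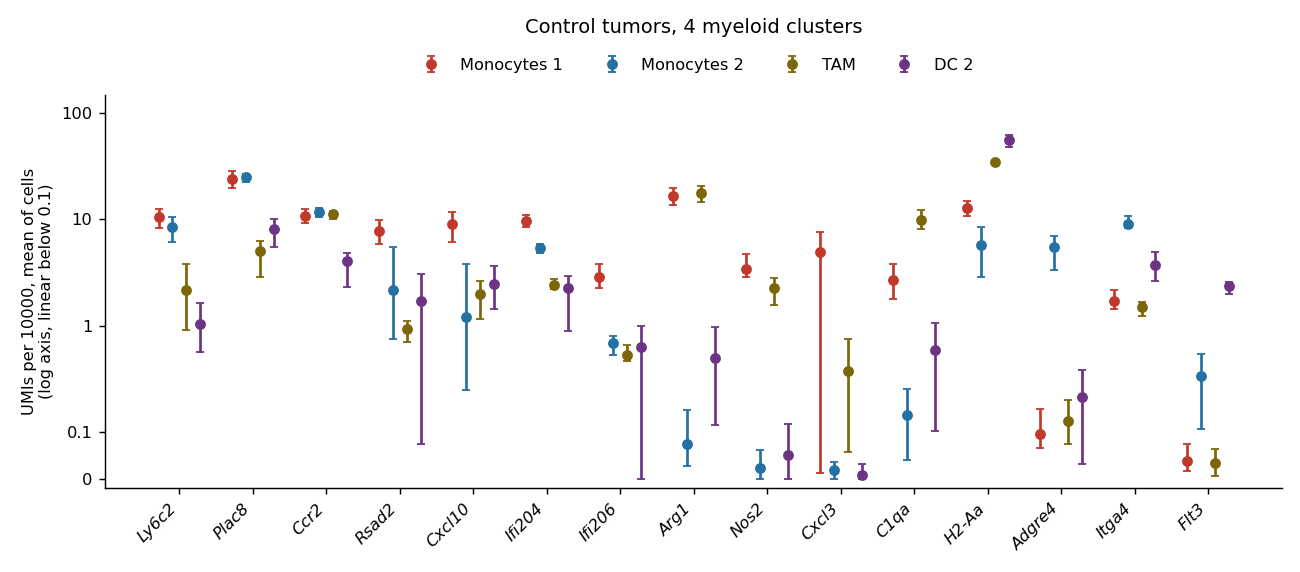
Level of 15 genes in 4 myeloid clusters of control tumors, as mean UMIs per 10000 on a log axis that is linear below 0.1; points are means and bars the lowest and highest of 4 tumors. Monocytes 1 and Monocytes 2 overlap for Ly6c2, Plac8 and Ccr2, whereas Rsad2, Cxcl10, Ifi204 and Ifi206 are highest in Monocytes 1.

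At a common depth of 3000 UMIs per cell, 37.5% of 304 Monocytes 1 cells (exact 95% interval 32.0% to 43.2%) held a Rsad2 UMI, against 19.5% of Monocytes 2, 9.91% of TAM and 18.1% of DC 2 cells. In the CD8 1 cluster of T cells, which served as a measure of free RNA, the share was 3.397%. Without thinning, the shares were 49.8%, 35.3%, 18.9%, 30.5% and 5.03% in the same order, and the median depth of CD8 1 cells was 6342 UMIs. Cxcl10 gave 37.5% of Monocytes 1 cells, 9.73% to 13.9% of the other 3 clusters and 1.91% of CD8 1 cells after thinning. At this depth both genes were detected in a part of the cells only. Thinning left out 7 of 311 control cells of Monocytes 1.

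The promoters of these genes are shown because the list is defined by a shared response. An ISRE core, spelled as a pair of GAAA repeats with 2 bases of any kind between them on either strand, was found from 250 bases before to 50 after the start (RefSeq, GRCm38.p6) of 14 of 23 interferon-stimulated genes with a promoter sequence (60.9%) and 9 of 11 HIN-200 genes (81.8%), against 3.99% of 27025 genes. Capitals mark the matches, which begin 120 bases before the start in Rsad2, 213 in Cxcl10, 104 and 85 in Ifit1, 40 in Ifi206 and 73 in Ifi213. In Isg15, 3 matches overlap.
Rsad2 (chr12:26456538-26456597, minus strand): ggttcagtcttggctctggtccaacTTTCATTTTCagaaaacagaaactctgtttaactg
Cxcl10 (chr5:92349068-92349127, minus strand): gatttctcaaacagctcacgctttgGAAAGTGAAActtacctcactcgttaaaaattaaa
Ifit1 (chr19:34640760-34640838, plus strand): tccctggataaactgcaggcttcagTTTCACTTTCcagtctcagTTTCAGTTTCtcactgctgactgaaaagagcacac
Isg15 (chr4:156200850-156200921, minus strand): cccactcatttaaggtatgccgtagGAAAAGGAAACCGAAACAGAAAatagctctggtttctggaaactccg
Ifi206 (chr1:173491324-173491383, minus strand): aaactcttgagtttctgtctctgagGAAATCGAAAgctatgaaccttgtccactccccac
Ifi213 (chr1:173599311-173599370, minus strand): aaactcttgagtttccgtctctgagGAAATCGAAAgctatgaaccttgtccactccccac
The Ifi206 and Ifi213 stretches are nearly the same sequence. Ifit2 held no match in this window, which says only that these letters are absent from it.

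Against Monocytes 2, 589 genes were at least 2-fold higher in Monocytes 1 and 526 at least 2-fold lower. The lower ones included genes of the non-classical monocyte list, of which 0 of 13 were highest in Monocytes 1, beside 16.9% of all 6952 genes. Adgre4, an adhesion receptor of Ly6C-low monocytes, was at 0.09 in Monocytes 1 and 5.51 in Monocytes 2. Nr4a1, their lineage factor, was at 2.10 ± 0.55 and 12.96. Ace (0.06 and 2.26), the scavenger receptor Cd36 (0.09 and 2.13) and the transcription factor gene Pou2f2 (0.91 and 6.06) went the same way. The integrin subunits Itgal (2.04 and 7.45) and Itga4 (1.71 and 9.15), which hold leukocytes to endothelium, were lower in Monocytes 1 too. Cx3cr1 was at 0.87 and 3.19. Stxbp6, Ldlrad3, Slc12a2, Pparg, Klf2, Cd300a and Hpgd completed the leading genes of Monocytes 2, all below 0.4 UMIs per 10000 in Monocytes 1.

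In the other direction stood genes that Monocytes 1 shared with TAM. Arg1, the enzyme that degrades arginine, was at 14.2, 19.7, 13.6 and 18.6 UMIs per 10000 in Monocytes 1 of control replicates 1 to 4. Its means were 16.5 in Monocytes 1, 17.9 in TAM and 0.07 in Monocytes 2. Nos2, which makes nitric oxide from the same substrate, was at 3.13, 2.88, 2.92 and 4.70, with means of 3.41 ± 0.87, 2.27 and 0.02. Replicate 4 lay above the other 3. After thinning, 49.7% of Monocytes 1 and 3.54% of Monocytes 2 cells held an Arg1 UMI, the latter close to the 2.97% in CD8 1 cells. Tgfbi, a matrix protein induced by TGF-beta, was at 40.1 ± 2.43 in Monocytes 1, 37.8 in TAM and 7.36 in Monocytes 2. Mmp14 (7.68, 7.90 and 0.11) and Vegfa (5.90, 8.93 and 0.54) were likewise far below both in Monocytes 2. Cd274, which encodes the ligand PD-L1, was at 9.43 ± 0.96 in Monocytes 1, 4.51 in TAM, 7.24 in DC 2 and 0.75 in Monocytes 2.

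Against TAM, 204 genes were at least 2-fold higher in Monocytes 1 and 139 at least 2-fold lower. Complement and lipid genes of macrophages were among the lower. C1qa was at 2.70 ± 0.83 in Monocytes 1 and 9.92 in TAM, C1qc at 1.42 and 5.50, and Apoe at 11.2 and 32.0. Mertk and Trem2, receptors for dead cells and lipids, were at 0.82 and 0.33 in Monocytes 1 and at 2.35 and 1.06 in TAM. MHC class II was lower as well. H2-Aa was at 14.8, 10.9, 13.2 and 12.1 UMIs per 10000 in control replicates 1 to 4, a mean of 12.7 against 34.8 in TAM and 56.3 in DC 2, and above the 5.72 of Monocytes 2. Of the 8 class II genes, 0 were highest in Monocytes 1, beside 16.9% of all 6952 genes. Dcstamp, Tanc2, Plxdc2, Zdhhc14, Dip2c, Cd38, Tnfrsf9 and Klrb1b were the other genes of highest ratio in TAM over Monocytes 1, each below 1 UMI per 10000 in Monocytes 1.

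Against DC 2, 592 genes were at least 2-fold higher and 611 at least 2-fold lower. Of the 10 dendritic cell genes listed, 0 were highest in Monocytes 1, beside 16.9% of all 6952 genes. Flt3, the receptor that dendritic cell precursors need, was at 0.04 in Monocytes 1 and 2.37 in DC 2, Cd209a at 0.09 and 4.60, and Zbtb46 at 0.02 and 0.87. Ccr7, which guides migration to lymph nodes, was at 0.05 and 1.49. The genes of highest ratio in DC 2 were Cyp7b1, Cd209a, Ctnnd2, Plet1, Dcstamp, Flt3, Tbc1d4, Klrd1, Zfp366 and P2ry10, all below 0.3 in Monocytes 1.

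Several inflammatory genes varied widely between tumors. Cxcl2, a chemokine for neutrophils, was at 1.21, 27.3, 13.003 and 30.2 UMIs per 10000 in Monocytes 1 of control replicates 1 to 4. Cxcl3, its close relative, was at 0.01, 7.67, 5.38 and 6.68. Slpi, a protease inhibitor, was at 1.28, 11.8, 7.65 and 18.2. Control replicate 1 was thus the lowest for all 3, and for Cxcl3 it lay below the TAM mean of 0.37. Spp1, which encodes osteopontin, was at 0.82, 18.5, 2.91 and 10.6, and Serpinb2 at 0.08, 3.86, 1.31 and 7.45. Cxcl3 and Slpi headed the ranking of genes that mark the cluster, with log2 differences of 3.42 and 3.22, yet neither exceeded every tumor of the other clusters. Pooled control neutrophils, which are not among the 3 clusters compared, held Cxcl3 at 6.16 and Slpi at 10.0, close to the UMI sums of Monocytes 1. Ptgs2, which encodes the prostaglandin enzyme COX-2, was at 5.46, 15.1, 13.3 and 21.5. Il1b was steadier, at 40.1 ± 8.80 in Monocytes 1 and 40.7 in TAM. Il1rn, which encodes the antagonist of the same receptor, was at 12.6 ± 1.38 and above every tumor of the other clusters, of which TAM was highest at 9.62.

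Of 15 growth factor receptors and lineage factors, 3 were highest in Monocytes 1, near the 16.9% of all 6952 genes measured. The median log2 difference of the 15 from the highest other cluster was -0.70, beside -0.40 for all genes. Csf1r, the receptor for macrophage colony-stimulating factor, was at 4.43 ± 0.42, 4.57 and 5.63 in Monocytes 1, Monocytes 2 and TAM, and Spi1 at 3.39, 4.52 and 2.87. Nr3c1 was at 2.29 ± 0.26 in Monocytes 1, 1.92 in Monocytes 2, 1.42 in TAM and 1.34 in DC 2. Of 11 pattern recognition and phagocytosis genes, 5 were highest in Monocytes 1. The Fc receptor gene Fcgr1 (3.77 against at most 2.09) and the lectin gene Clec4e (4.36 against at most 2.04) did so in every tumor.

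Cells of the cluster differed from each other along these lists. With each control cell thinned to 3000 UMIs, the interferon-stimulated list summed to a median of 27.5, 14.0, 29.5 and 15.5 UMIs in control replicates 1 to 4, and in replicate 3 it ran from 3.90 at the 10th to 84.1 at the 90th percentile. The sums of the interferon-stimulated and HIN-200 lists, which share no gene, moved together, with Spearman's rho of 0.76, 0.75, 0.89 and 0.88 across 64, 62, 130 and 44 cells. The classical monocyte sum ran against MHC class II, with rho between -0.51 and -0.29, and against the macrophage list, with rho between -0.38 and -0.18. The interferon-stimulated sum had no such relation to the classical list (rho from -0.18 to 0.05). These are descriptions across cells of 1 library, which share their tumor, and carry no p-value.

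**Figure D3:**
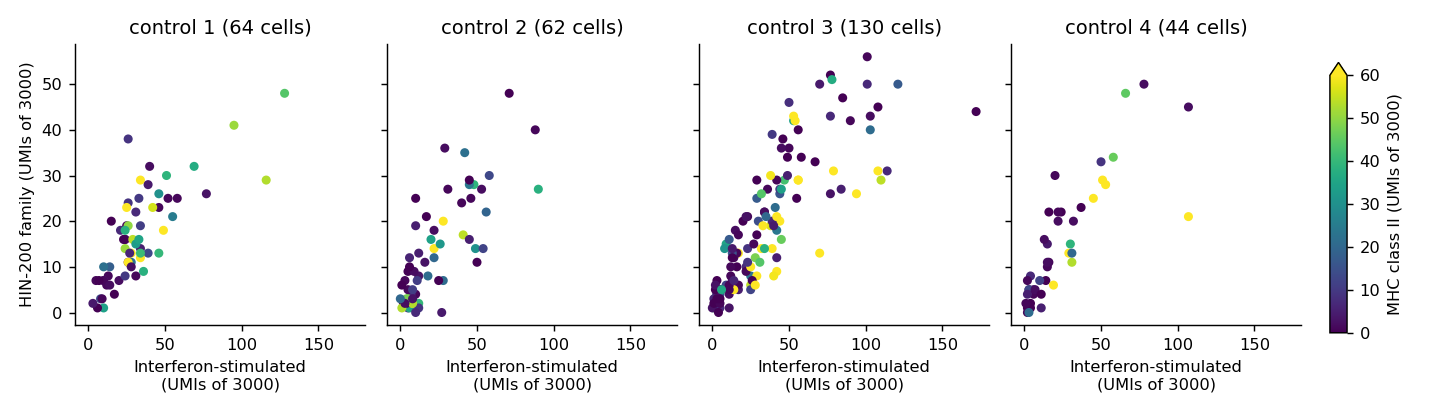
Monocytes 1 cells of 4 control tumors, each thinned to 3000 UMIs, by summed UMIs of 26 interferon-stimulated genes (horizontal) and 12 HIN-200 genes (vertical), colored by summed UMIs of MHC class II genes. Both sums rise together in each tumor, from cells near 0 to cells with over 50 interferon-stimulated UMIs.

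The comparison with GC asked how the remaining cells differed. The 18 GC cells held 301963 UMIs and were pooled, and levels in this comparison are UMI sums per 10000 for the pool, with an exact 95% Poisson interval, and for each tumor. A gene was counted as outside the controls where the pool was at least 2-fold above the highest, or at least 2-fold below the lowest, of control replicates 1 to 4, and its interval left that control value out. Genes needed 0.2 UMIs per 10000 in the control mean or in the GC pool. Of these 6008 genes, 249 (4.14%) lay above and 351 (5.84%) below the controls, the background for each count by list below. Without the 2-fold limit and the interval, the pool lay above the highest of these control tumors for 1825 genes and below the lowest for 2335. By the filter, a gene could enter through the group where it was high. Those that entered through the GC pool alone include Crispld2, Fkbp5, Mt2, Cxcr2, Serpine2, Saa3, Cxcl1 and Ceacam1. Such a gene could lie above the controls but not below them, so the counts and adjusted p-values lean on this filter. With the 4 cells of control replicate 5 added as another tumor (an alternative chosen after seeing the data), 76 lay above and 249 below. The edgeR quasi-likelihood test on UMI sums of 7 tumors (5 control tumors, GC replicates 2 and 3) gave 176 higher (2.93%) and 150 lower genes (2.5%) at a Benjamini-Hochberg (BH) adjusted p under 0.05. GC replicate 5, with 2 cells, is not in this fit. The fit treats a sum over 4 cells and a sum over 130 cells alike. "Rose" and "fell" refer to this test, and every adjusted p below is BH-adjusted from edgeR. Each SE of a log2 change was derived from the test, as the size of the change over the square root of its F statistic. Leaving out GC replicate 3 or control replicate 3 left 133 and 144 calls.

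Genes known to be induced by GCs were higher in the GC cells. Of 11 such genes measured, 7 lay above the controls and 0 below, and 8 rose in edgeR. Both counts include Fkbp5 and Mt2, which passed the filter through the GC pool alone. Fkbp5, a co-chaperone of the GC receptor, was at 0.17, 0.14, 0.18, 0.17 and 0.20 UMIs per 10000 in control replicates 1 to 5. It was at 4.03, 2.60 and 7.65 in GC replicates 2, 3 and 5, and the groups did not overlap. The log2 change was 4.37 ± 0.29 (SE, adjusted p = 8.67e-06). Tsc22d3, which encodes the anti-inflammatory protein GILZ, went from 0.67 ± 0.09 (SD, n = 4) to 3.51 (2.87 to 4.25) in the pool (adjusted p = 0.000153). The transcription factor gene Klf9 went from 0.24 to 2.35 (adjusted p = 8.99e-05). Il1r2, the decoy receptor for interleukin-1, was at 7.31, 6.41, 6.49, 6.00 and 10.2 in control replicates 1 to 5 and at 25.4, 28.5 and 22.2 in the GC tumors (adjusted p = 0.000153). The metallothionein genes Mt1 (4.06 to 32.3) and Mt2 (0.18 to 11.99) rose with adjusted p = 0.0184 and 0.0482. Sgk1, also a GC target in many cells, was at 3.49 ± 0.36 in controls and 1.92 in the pool (adjusted p = 0.064).

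A GC receptor element, spelled as GNACA and TGTNC with 3 bases of any kind between them on either strand, was found in 2 of 12 promoters of this list, those of Mt1 and Sgk1, against 0.537% of all. That of Mt1 is shown as the example, with the match in capitals beginning 94 bases before the start.
Mt1 (chr8:94178970-94179032, plus strand): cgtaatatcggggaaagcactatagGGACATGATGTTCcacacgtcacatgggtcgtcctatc
GC receptor elements often lie far from promoters, and this window was the only one searched.

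Several genes of classical monocytes stood higher in the GC cells, and others of the same list lower. Of 13 measured, 5 lay above the controls (Chil3, F13a1, Fn1, Vcan and Cd14) and 1 below (Plac8). Chil3, a chitinase-like protein of alternatively activated myeloid cells, was at 2.31, 4.48, 3.73, 5.82 and 1.02 UMIs per 10000 in control replicates 1 to 5. It was at 48.2, 39.2 and 106 in GC replicates 2, 3 and 5, above every control, and rose by 3.65 ± 0.40 on the log2 scale (adjusted p = 0.00103). F13a1, which encodes a subunit of coagulation factor XIII, was at 7.72, 13.4, 11.1, 15.1 and 5.49 in controls and at 44.4, 65.9 and 46.4 after GC (adjusted p = 0.00154). All 18 GC cells held at least 37 F13a1 UMIs. The matrix proteoglycan gene Vcan (2.25 to 5.46, adjusted p = 0.0042) and the lipopolysaccharide co-receptor gene Cd14 (11.4 to 28.2, adjusted p = 0.0157) rose. Vcan was at 8.48, 4.52 and 0 in GC replicates 2, 3 and 5, against 1.90 to 2.67 in controls. GC replicate 5 thus lay below every control for Vcan and is not in the fit. Fn1 was at 16.4 ± 2.60 in controls and 42.2 in the pool (adjusted p = 0.0619). Chil3 has close relatives in the genome, so its reads may be shared with them.

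The markers of the name parted after GC. Plac8 was at 30.4, 18.9, 27.7, 19.7 and 26.4 UMIs per 10000 in control replicates 1 to 5 and at 7.97, 3.29 and 8.67 in the GC tumors, without overlap, and fell by 2.05 on the log2 scale (SE 0.33, adjusted p = 0.00422). Ccr2 was at 10.5 ± 1.24 in controls and 8.84 (7.81 to 9.97) in the pool, with a log2 difference of 0.04 ± 0.29 (adjusted p = 0.963). Ly6c2 was at 34.4 in GC replicate 2, 5.00 in replicate 3 and 4.33 in replicate 5, against 8.03 to 16.1 in controls. This level came from 1 cell: a single cell of GC replicate 2 held 380 of the 492 Ly6c2 UMIs and 73 of 175 Plac8 UMIs. The adjusted p of Ly6c2 was 0.438 with all 18 cells. Without that cell, the pool of 17 cells stood at 3.99 (3.29 to 4.80) for Ly6c2. The cell was picked as the highest in Ly6c2, so a lower level without that cell was fixed in advance and is no test. Plac8 stood at 3.64 without it, and 5 of the 13 classical monocyte genes then lay above the controls and 4 below. Without GC replicate 2, 3 lay above and 3 below. The control TAM pool stood at 1.66 for Ly6c2 and 4.14 for Plac8. The GC TAM pool stood at 6.12 (5.57 to 6.69) for Ly6c2, above the 17 GC cells of Monocytes 1, and at 3.31 for Plac8. Of the 18 GC cells, 14 held a UMI of Ly6c2 and 14 a UMI of Plac8, in part different cells.

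**Figure D4:**
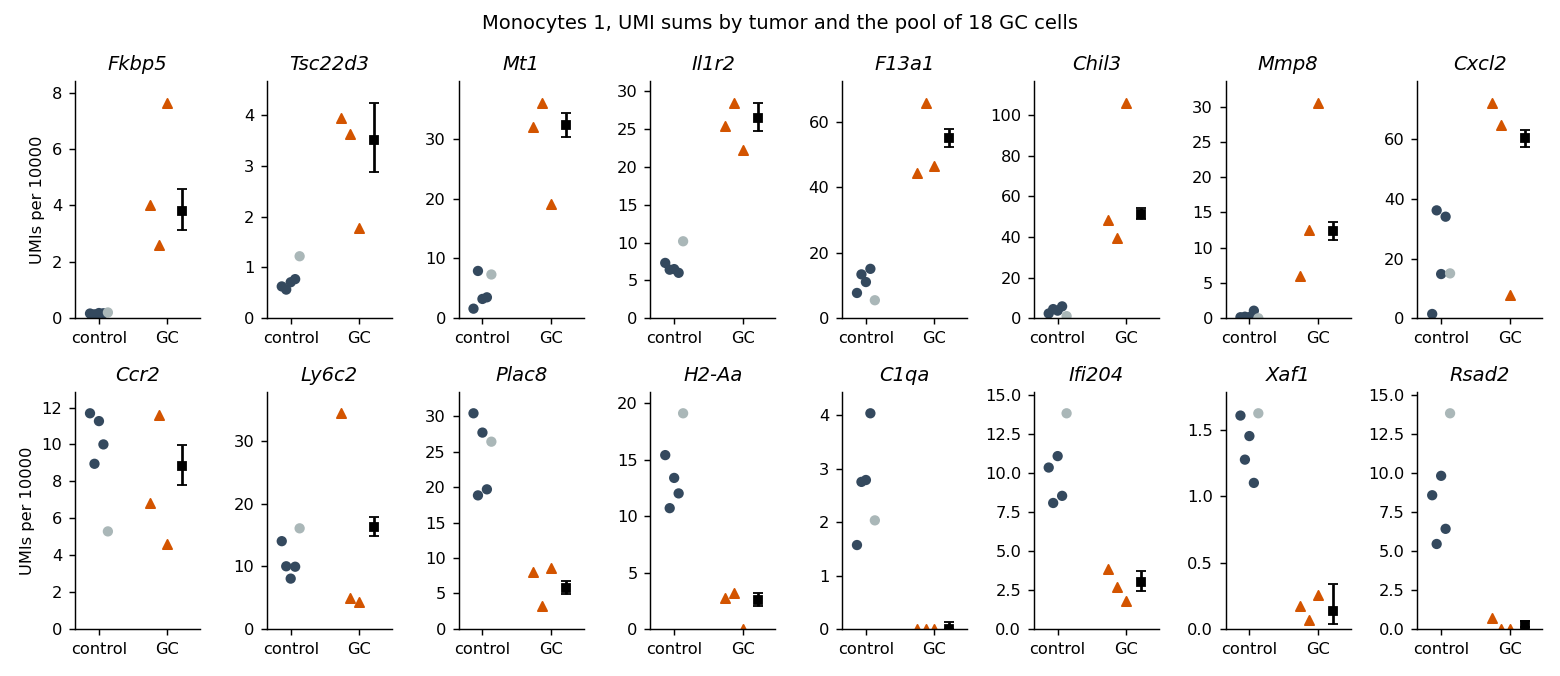
UMIs per 10000 of 16 genes in Monocytes 1 for each control tumor (circles, replicate 5 with 4 cells in grey), GC replicates 2, 3 and 5 (triangles) and the pool of 18 GC cells with its exact 95% Poisson interval (square). Fkbp5, Chil3 and F13a1 do not overlap between groups, nor do Plac8 and H2-Aa, and the Ly6c2 level of GC replicate 2 rests on 1 cell.

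MHC class II genes were lower after GC. Of 7 measured, 6 lay below the controls and 0 above, and 5 fell. H2-Aa was at 15.4, 10.7, 13.4, 12.01 and 19.1 UMIs per 10000 in control replicates 1 to 5 and at 2.74, 3.15 and 0 in GC replicates 2, 3 and 5, with no overlap. It fell by 2.14 on the log2 scale (SE 0.27, adjusted p = 0.000781), and only 6 of 18 GC cells held a UMI. H2-Eb1 (6.87 to 0.96, adjusted p = 0.00156), H2-Ab1 (13.4 to 2.75, adjusted p = 0.00325) and the invariant chain Cd74 (30.6 to 11.9, adjusted p = 0.0144) fell with it. Ciita, the master regulator of the class II genes, was at 0.71 in controls and 0.13 in the pool (adjusted p = 0.0721). In TAM, H2-Aa was at 37.9 in the control pool and 25.8 in the pool of 43 GC cells. Whether the 2 clusters differ in this was not tested. The core of the Y box, CTGATTGG on either strand, which is part of the class II promoter module, was found in 2 of 5 class II promoters and in 4.70% of all. Both are shown, with the match in capitals.
H2-Aa (chr17:34287842-34287899, minus strand): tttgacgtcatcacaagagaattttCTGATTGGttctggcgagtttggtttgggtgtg
H2-Eb1 (chr17:34305780-34305837, plus strand): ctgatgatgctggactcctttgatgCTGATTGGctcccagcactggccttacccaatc

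Interferon-stimulated genes were lower in the GC cells. Of 26 interferon-stimulated genes, 17 lay below the controls and 0 above, and 8 fell. All 26 had a lower level in the pool than the mean of the controls, as did 3361 of all 6008 genes. The median log2 difference was -1.63, beside -0.10 for all genes. Rsad2 was at 8.57, 5.45, 9.82, 6.42 and 13.8 UMIs per 10000 in control replicates 1 to 5 and at 0.69, 0 and 0 in GC replicates 2, 3 and 5. It fell (adjusted p = 0.00826), and its 8 UMIs in the GC pool came from the same cell of replicate 2 that held most of the Ly6c2 UMIs. Xaf1 (1.36 to 0.13, adjusted p = 0.00258), Ifih1 (3.24 to 0.50, adjusted p = 0.0197) and Oasl2 (3.84 to 0.86, adjusted p = 0.0364) fell. Isg15 was at 5.32 ± 1.47 in controls and 1.16 in the pool, where 27 of its 35 UMIs lay in that cell (adjusted p = 0.0869). Without the cell, 23 of 26 lay below the controls and 20 fell. That cell was picked from these data and held most Rsad2 and Isg15 UMIs of the pool, so these higher counts are no test. Without GC replicate 3, 9 lay below. Cxcl10 was at 8.64 ± 2.62 in controls and 1.126 in the pool (adjusted p = 0.155), and at 1.98 in control and 10.3 in GC TAM.

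Of 12 HIN-200 genes, 9 lay below the controls and 0 above, and 5 fell. Ifi204 was at 10.3, 8.08, 11.1, 8.53 and 13.8 UMIs per 10000 in control replicates 1 to 5 and at 3.85, 2.67 and 1.78 in the GC tumors, with no overlap (log2 change -1.56 ± 0.27, adjusted p = 0.00669). Aim2 (1.26 to 0.30) and Ifi206 (2.78 to 0.43) fell with adjusted p = 0.0179 each. Ifi207, which like Aim2 was not highest in Monocytes 1, was at 5.63 ± 1.26 in controls and 5.73 in the pool (adjusted p = 0.857). Without the cell of replicate 2, 11 lay below, and without GC replicate 3, 4 did. The count of 11 is no test, since the cell was picked from these data.

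**Figure D5:**
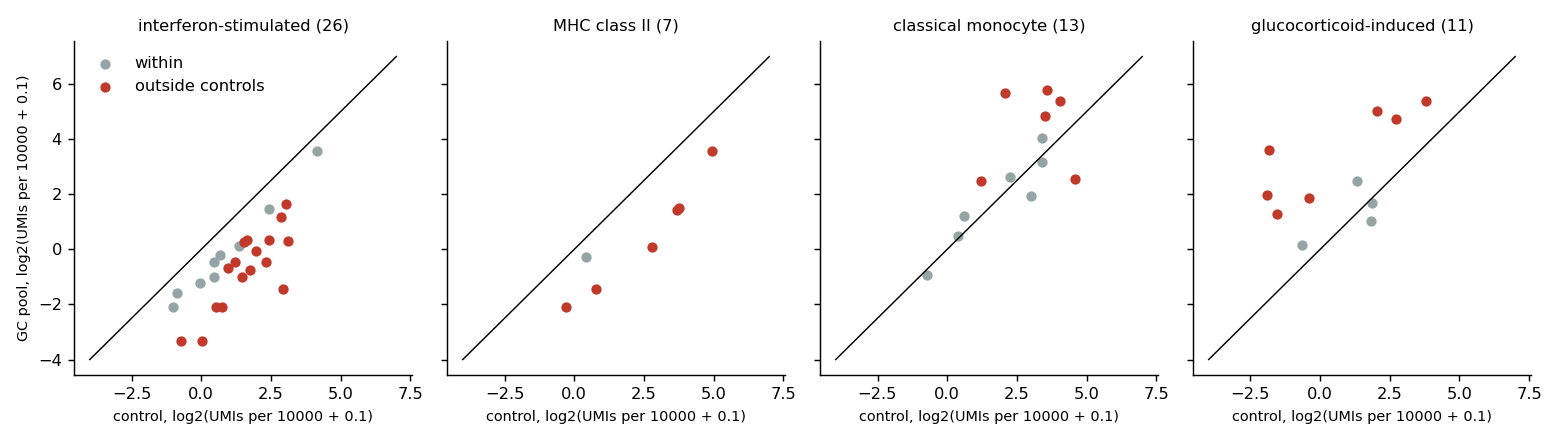
Level in the GC pool (vertical) against the mean of control replicates 1 to 4 (horizontal) for the measured genes of 4 lists, both as log2(UMIs per 10000 + 0.1), with genes outside the controls in red and the line of equal levels in black. All 26 interferon-stimulated and all 7 MHC class II genes lie below the line, whereas 9 of 11 GC-induced genes lie above it. Of all 6008 genes, 3361 were lower in the pool.

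Complement genes of macrophages were lower. Of 15 macrophage genes, 4 lay below the controls (C1qa, C1qb, C1qc and Ms4a7) and 0 above, beside 5.84% and 4.14% of all 6008 genes. Ms4a7 was at 0.86 in controls and 0.10 in the pool (adjusted p = 0.0751). C1qa was at 1.57, 2.75, 2.79, 4.04 and 2.03 UMIs per 10000 in control replicates 1 to 5 and at 0 UMIs in all 18 GC cells, at least 28.1-fold lower against 3 UMIs of the pool (adjusted p = 0.00156). C1qc fell from 1.56 to 0.13 (adjusted p = 0.00669). Control and GC TAM held C1qa at 11.6 and 10.5. Apoe was at 10.6 ± 2.84 in control Monocytes 1 and 21.6 in the pool (adjusted p = 0.156), with 188 of 652 UMIs in the cell of replicate 2. Arg1 was at 16.6 ± 3.74 in controls and 13.5 (12.2 to 14.9) in the pool (adjusted p = 0.912).

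Some transcripts known from neutrophils stood higher in the GC cells. Mmp8, a collagenase of granulocytes, was at 0.14, 0.21, 0.16, 1.07 and 0 UMIs per 10000 in control replicates 1 to 5 and at 6.00, 12.5 and 30.6 in GC replicates 2, 3 and 5, and 16 of 18 cells held it (adjusted p = 0.0207). The chemokine receptor gene Cxcr2 went from 0.15 to 2.78 (adjusted p = 0.00175). Lcn2 was at 0.21 and 5.40 (adjusted p = 0.201), with 90 of its 163 UMIs in 1 cell. Of the 8 neutrophil genes listed, 5 were measured and 3 were at 0 in the pool, among them S100a9. S100a9 had 0 UMIs in the 18 cells, against 175 UMIs per 10000 in the 44 GC neutrophils. S100a8, also on the list, went the other way, with 55 UMIs in 9 of the 18 cells (log2 change 1.85, adjusted p = 0.467). The remaining measured member, Csf3r, had a log2 change of -0.40 (adjusted p = 0.585). The list summed to 1.38 to 5.00 in the control tumors and to 13.2 to 65.8 in the GC tumors. The part of neutrophil RNA in Mmp8, Cxcr2 and Lcn2 was not tested.

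Counts for cytokines, integrins and receptors stand beside 4.14% of all 6008 genes above and 5.84% below the controls. In edgeR, 2.93% of all genes were higher and 2.5% lower. Of 15 cytokine and chemokine genes, 1 lay above and 1 below the controls. The latter was Ccl5, a T cell chemoattractant, at 10.2, 4.34, 9.67, 2.27 and 10.8 UMIs per 10000 in control replicates 1 to 5 and at 0, 0.07 and 4.59 after GC (adjusted p = 0.0169). The former was Cxcl1, with all 25 of its UMIs in 1 cell, and it passed the filter through the GC pool alone. The interleukin gene Il1b was at 42.3 ± 9.24 in controls and 48.7 in the pool (adjusted p = 0.824). Cxcl2 was at 72.4, 64.8 and 7.90 in GC replicates 2, 3 and 5 against 1.42 to 36.2 in controls, so that the groups overlapped (adjusted p = 0.351), and 1 cell held 628 of 1822 UMIs. Nos2 rose from 3.45 ± 1.08 to 9.37 (adjusted p = 0.0132), and Cd274 fell from 9.57 ± 1.21 to 3.15 (adjusted p = 0.00885). Of 11 trafficking receptors and integrins, 0 lay above the controls and 2 below, Cx3cr1 and Itga4. Itga4 fell from 1.67 to 0.30 (adjusted p = 0.0144). Of 14 growth factor receptors and lineage factors, 0 lay outside the controls in either direction and 0 were called by edgeR. Nr3c1 itself was at 2.40 ± 0.13 in controls and 3.34 (2.72 to 4.06) in the pool (adjusted p = 0.213). Of 9 genes of the TGF-beta axis, Tgfb1 (4.53 to 1.59, adjusted p = 0.0172) and Smad3 (0.49 to 0.03, adjusted p = 0.0471) fell. Of 6 non-classical monocyte genes measured, Ceacam1, which passed the filter through the GC pool alone, lay above the controls and Cx3cr1 and Pou2f2 below. The heat shock genes Hspa1a (2.70 to 0.17) and Hspa1b (4.23 to 0.40) fell with adjusted p = 0.0232 and 0.00708.

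Among genes with at least 1 UMI per 10000 in the higher group, those furthest above the nearest control tumor were Crispld2, Mt2, Serpine2, Fkbp5, Saa3, Mmp8, Ap1s2, Prnp, Klf9 and St7. Crispld2, which encodes a secreted protein, went from 0.01 to 1.62 UMIs per 10000 (adjusted p = 0.000298). It passed the filter through the GC pool alone. The adaptor gene Ap1s2 (0.51 to 6.86, adjusted p = 8.28e-05), the prion protein gene Prnp (0.28 to 4.04, adjusted p = 8.28e-05) and St7 (0.62 to 6.23, adjusted p = 4.16e-05) rose too. Serpine2 and Saa3 rested on single cells, with 37 of 37 and 158 of 166 UMIs. The genes furthest below were Rsad2, Fabp5, C1qa, Gatm, Slamf7, C1qc, Oasl1, Xaf1, Hspa1a and Il21r. Fabp5, a fatty acid binding protein, was at 2.07 ± 0.25 in controls and held 1 UMI in the pool, a level of 0.03 (adjusted p = 0.000515). Gatm, an enzyme of creatine synthesis, was at 1.78 in controls and at 0 in the pool (adjusted p = 0.0391).

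For some of the same genes, TAM and neutrophils are given beside Monocytes 1 as pooled levels, without a test between the clusters. The pool of 43 GC TAM held Chil3 at 28.1 and F13a1 at 25.5 UMIs per 10000, against 0.53 and 5.52 in control TAM. Mmp8 was at 5.74 and 0.07, Mt1 at 19.4 and 4.14 and Fkbp5 at 3.09 and 0.26. GC replicates 2 and 3 supplied 17 and 16 of these 43 cells. St7 was at 7.98 in GC and 1.28 in control TAM, and Ap1s2 at 5.69 and 0.55. The pool of 44 GC neutrophils held Chil3 at 75.5 UMIs per 10000, against 0.04 in control neutrophils. In the same order, Crispld2 was at 5.51 and 0.75, St7 at 5.00 and 0.28 and Prnp at 4.17 and 0.21. Higher levels of these genes after GC were thus not particular to Monocytes 1.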

How the data were processed

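Live CD45+ cells of 10 tumors (5 per group) were sorted, hashtagged and run in 2 droplet channels. Per the submitters' processing notes, reads were aligned with Cell Ranger 7.1.0 (mm10, introns counted) and handled in R 4.3.1 with Seurat 5.0.3. The authors removed outlying cells, integrated both channels, clustered them and named the clusters, and cell names were used as given. No doublet caller was run here. The authors deposited the natural log of 1 plus UMIs per 10000 for each gene and cell. A deposited cell table gives each cell's UMI count, tumor, cluster and mitochondrial percent, which the authors computed. UMI counts were recovered from the log values, and 100% of values came out whole within 0.01. The median control cell of the series held 7440 UMIs and the median GC cell 9163.

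Members and gene lists were chosen with earlier results of these data known. Levels with fewer than 10 cells per tumor were left out of the control comparisons, and genes needed 0.2 UMIs per 10000. This level had to be reached in at least 1 compared cluster or, for GC, in the control mean or the pool. Named genes are the 3 markers, the 15 genes highest in Monocytes 1, the 10 leading genes of each compared cluster, the 10 furthest above and below the controls after GC (each with a mean of at least 1 UMI per 10000 in the higher group), and list members. The planned permutation tests of shares were not reported, since genes that define the cluster differed between the groups. Treatment was tested with edgeR 4.0.16 (quasi-likelihood, TMM, Benjamini-Hochberg) on UMI sums of tumors with at least 3 cells, after tests on simulated data. DESeq2 1.42.0 was an alternative. The labels do not say whether each tumor came from a separate mouse, so p-values measure the spread between these tumors. Coordinates are those of GRCm38 (GENCODE M21). Python 3.11.15 was used for all other steps.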

Additional observations from a re-analysis of the deposited data

Results flagged for a closer look

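Of 30 sets of values per group checked for a sample far from the others, 1 stood out. Nos2 in Monocytes 1 was at 4.70 UMIs per 10000 in control replicate 4, against 3.13, 2.88 and 2.92 in control replicates 1 to 3. The gap between replicate 4 and its nearest neighbor was 0.862 of the whole range, above the critical value of 0.829 for 4 samples. Chance alone gives such a gap in about 1 of 20 groups.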

How the results depend on the processing

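The number of genes at least 2-fold higher in Monocytes 1 than in each compared cluster was 67, and became 17 with 1 added on the log2 scale and 6 from averages of the log values as deposited. Leaving out each replicate gave 59 to 81. Serpinb2 turned from 1.80 to -0.21 with the deposited log values. The 600 genes outside the control tumors after GC became 267 with a filter of at least 1 UMI per 10000, 981 with a 1.5-fold limit, 140 with a 4-fold limit and 325 with control replicate 5 included, and edgeR called 326. Leaving out each replicate gave 597 to 758. The edgeR count became 612 with no filter and 547 without the 1 GC cell, and leaving out each replicate gave 133 to 378. These edgeR settings, the 1 cell and control replicate 5 were chosen after seeing the data. DESeq2 called 390. Serpine2 turned to a log2 difference of -0.12 without GC replicate 2, which held all of its UMIs, and ranged up to 4.51 without GC replicate 3. The cause of the other changes was not tested. The difference in the share of CD45+ cells ran from -6.33 to -1.47 percentage points over the alternatives, that among monocytes and TAMs from -1.80 to 9.27, and the log2 ratio to TAM from -0.06 to 0.91, all by less than 1 SD. For named genes after GC, 1112 values kept their direction and their side of the limit, 102 no longer passed it and 1 reversed.

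No paired analysis was possible because hashtag numbers only name tumors and do not link a control tumor with a GC tumor. The 18 GC cells from 3 tumors limit what can be seen. The limit for a gene with 0 UMIs in their pool was 0.0993 UMIs per 10000, for counting error only.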
